A study of Mus musculus with 5 samples.

Results

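A stretch of 55 kb of mouse chromosome 17 was examined, whose first probe lies at 32405025 and whose last lies at 32459574 in the positions of the array files. It was chosen by its levels of log2(cDNA/input), which were high over most of its length on all 5 arrays, together with the genes thought to lie there. It held 325 of the 387986 chromosome 17 probes, in 55 of the 75042 windows of 1 kb that held any probe. Of those 55 windows, 45 had the 4 probes needed for a test, among 56080 such windows in all. The block had been named after Wdr46, Vps52 and Rps18. Once the probes had been placed on a reference genome, it held 9 protein-coding genes: Daxx, Zbtb22, Tapbp, Rgl2, H2-Ke2 (now Pfdn6), Wdr46, B3galt4, Rps18 and the front part of Vps52.

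The arrays came from 2 spontaneously immortalised embryo fibroblast lines of FVBN mice, both begun at 12.5 days after conception. Double-stranded cDNA was hybridised in 1 colour and sonicated genomic DNA of the same line in the other. The groups were MEFF total RNA (n = 2, genotype Thp/+), MEFB polyA RNA (n = 1, genotype +/Thp) and MEFF polyA RNA (n = 2, genotype Thp/+). Every group thus carried the Thp deletion on 1 copy of the chromosome, between the genes T and Sod2, and the block lies outside it. No array came from cells without the deletion. Each line is a single immortalised line, and no separate culture is named for a replicate. The p-values below thus cover the scatter among these arrays alone, and that scatter may be technical. The fits also pool that scatter between features. In bulk RNA fewer expressing cells and less RNA per cell cannot be told apart. Double-stranded cDNA carries no strand, so transcripts of either strand add to a level. The number of arrays limits the precision of every value below.

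The genes of the block lie in the extended class II region of the mouse histocompatibility complex, where short genes of varied and mostly general function sit close together. Tapbp encodes tapasin, which holds class I molecules to the peptide transporter. Rps18 encodes a protein of the small ribosomal subunit, and Wdr46 a nucleolar protein needed for processing of small-subunit RNA. H2-Ke2 encodes prefoldin subunit 6, part of a chaperone for newly made actin and tubulin. Vps52 encodes a subunit of the tethering complexes that bring endosomal vesicles back to the Golgi. Daxx is a chaperone of histone H3.3, Zbtb22 a BTB zinc finger protein, Rgl2 an exchange factor for Ral, and B3galt4 a galactosyltransferase of ganglioside synthesis.

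In this block 2 pairs of genes start back to back, Rps18 with Vps52 and H2-Ke2 with Wdr46. Their upstream bases are shown because these starts divide the block into its transcribed units. The sequences are those of RefSeq on GRCm38.p6, written 5′ to 3′. Capitals mark the letters CCGGAAG on either strand, a sequence that some ETS-family factors bind. The first stretch is chr17:33955666-33955799, the whole interval of 134 bases between the starts of Rps18 and Vps52, on the plus strand. The second is chr17:33940344-33940493 before Pfdn6, on the minus strand, and the third is chr17:33940573-33940722 before Wdr46, on the plus strand.
Rps18 to Vps52: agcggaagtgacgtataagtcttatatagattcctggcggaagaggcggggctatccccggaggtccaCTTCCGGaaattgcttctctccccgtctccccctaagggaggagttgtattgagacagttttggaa
Pfdn6 upstream: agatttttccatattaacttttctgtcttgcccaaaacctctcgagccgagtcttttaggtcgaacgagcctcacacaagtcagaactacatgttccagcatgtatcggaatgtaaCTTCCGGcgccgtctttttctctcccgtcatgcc
Wdr46 upstream: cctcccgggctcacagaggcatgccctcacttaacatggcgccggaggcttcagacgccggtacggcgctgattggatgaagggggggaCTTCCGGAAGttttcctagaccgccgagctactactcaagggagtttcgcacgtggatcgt

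All 9 genes had an entry in the RefSeq promoter table, which runs from 250 bases before to 50 after each start. Several genes have more than 1 start, which gave 14 promoters. CCGGAAG was found on either strand in 11 of the 14, from 6 of the 9 genes, namely Daxx, Pfdn6, Wdr46, B3galt4, Rps18 and Vps52. Of all 32851 promoters in the table, 8.86% held it, and of those on chromosome 17, 10.1%. In the Wdr46 stretch the 2 matches, 1 per strand, overlap. GGGCGG was found in 6 of the 14 promoters (35.7% of all promoters) and CCAAT in 4 of the 14 (37.4%). TATAAA was found in 0 of the 14, against 13.6% of all promoters. The promoters of 1 gene and those of back-to-back genes share bases, so these counts are not independent. The motifs were chosen after the sequences had been read, and a match describes letters, not binding.

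No source used here names the build behind the file positions, so the probes were placed on NCBIM37 by their layout, without any intensity. Tiling probes avoid repeats, and the shift that laid them best on unique sequence was taken in blocks of 50 kb. Around the examined block the shift was instead fitted probe by probe within a fixed range, with a penalty of 25 for each change. Searched as a whole, the examined block had a best score of 0.98 and a next best of 1.142 further away, lower being better. Over the chromosome 89.1% of probes were placed. Within the block most probes took a shift of 1640633 bp and those before 32413401 took 1640343 bp. The expression data, which had no part in the placing, were then set against the exons. On every array the excess of exon probes over the others in the block peaked at an added shift of -25 bp, on a grid of 25 bp. At that peak the excess was 0.50 and 0.58 (log2) in MEFF total RNA, 1.46 in MEFB polyA RNA, and 1.13 and 1.59 in MEFF polyA RNA. More than 100 bp away the highest values were 0.30 and 0.37 in MEFF total RNA, 0.73 in MEFB polyA RNA, and 0.64 and 0.84 in MEFF polyA RNA.

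**Figure D1:**
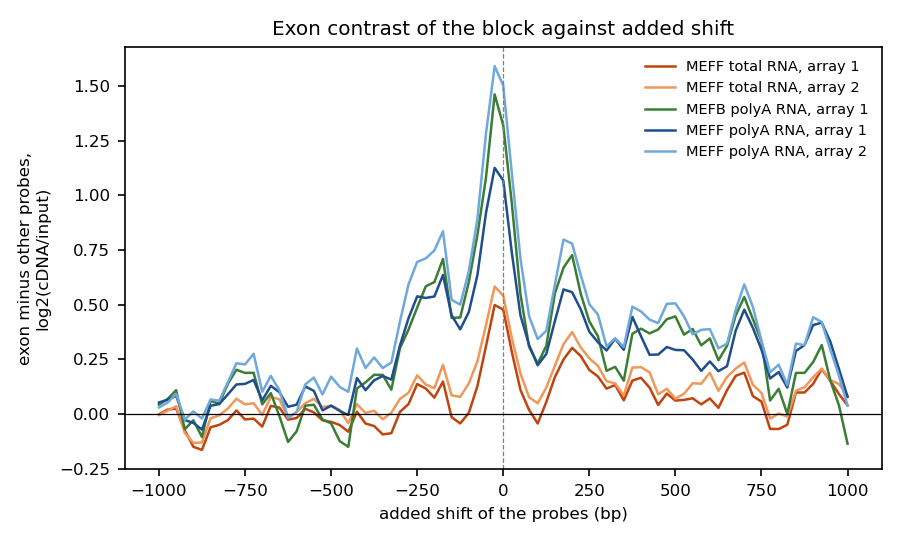
Mean log2(cDNA/input) of exon probes minus that of all other probes of the block (y axis) when every probe is moved by an added shift (x axis, bp), 1 line per array. All 5 lines are highest 25 bp from the placed position, at 0.50 to 1.59.

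On NCBIM37 the genes follow each other on chromosome 17 as follows, in the GENCODE vM1 annotation. Daxx lies at 34046359 to 34052534, Zbtb22 at 34052849 to 34056269, Tapbp at 34052844 to 34066235 and Rgl2 at 34066488 to 34074632, all on the plus strand. H2-Ke2 lies at 34075766 to 34077288 on the minus strand and Wdr46 at 34077605 to 34086640 on the plus strand. B3galt4, which has a single exon, lies at 34086859 to 34088433 and Rps18 at 34088944 to 34092946, both on the minus strand. Vps52, on the plus strand, runs from 34092757 to 34103929 and leaves the block before its end. The annotated spans of Rps18 and Vps52 overlap, while those of their protein-coding transcripts do not. The annotated span of Tapbp includes Zbtb22, and exon probes were given to a gene only where no other gene claims them. In all, 119 probes of the block fell in exons of 1 gene, 168 in introns and 32 between genes. Another 6 lay where genes overlap and were given to no gene.

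The level of a window is the mean log2(cDNA/input) of its probes after the array median is subtracted. These levels are what chose the block, so they are described without a test. The mean of all block probes was 0.52 and 0.58 in the MEFF total RNA arrays, 1.32 in MEFB polyA RNA, and 1.00 and 1.86 in the MEFF polyA RNA arrays. Among 1584 stretches of 55 kb along the chromosome the block ranked 61 and 38 in MEFF total RNA, 21 in MEFB polyA RNA, and 16 and 10 in MEFF polyA RNA. The 55 kb before it lay at -0.05 and -0.13 in MEFF total RNA, -0.24 in MEFB polyA RNA, and -0.01 and 0.02 in MEFF polyA RNA, over 50 probes. The 55 kb after it lay at -0.02 and -0.03 in MEFF total RNA, -0.16 in MEFB polyA RNA, and 0.01 and 0.10 in MEFF polyA RNA, over 121 probes.

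At the proximal edge the mean of the first 5 kb inside lay above that of the 5 kb outside on every array. The rise was not at the edge itself. The first 1 kb window inside lay between 0.09 and 0.38 on the 5 arrays. The next lay between 0.06 and 1.17, with the 1.17 on MEFF polyA array 2. The window from 3 kb inside lay between 0.98 and 3.07. The 33 probes of the first 5 kb inside averaged 0.46 and 0.57 in MEFF total RNA, 1.01 in MEFB polyA RNA, and 0.76 and 1.53 in MEFF polyA RNA. The 15 probes of the 5 kb just outside averaged -0.04 and -0.07 in MEFF total RNA, -0.18 in MEFB polyA RNA, and 0.08 and 0.04 in MEFF polyA RNA. At the distal edge, which cuts Vps52, the 22 probes of the last 5 kb inside averaged 0.60 and 0.61 in MEFF total RNA, 1.29 in MEFB polyA RNA, and 1.02 and 1.94 in MEFF polyA RNA. The 10 probes of the next 5 kb still averaged 0.25 and 0.10 in MEFF total RNA, 1.05 in MEFB polyA RNA, and 0.72 and 1.39 in MEFF polyA RNA.

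Inside the block the signal rose and dropped with the genes. A level of at least 1 (log2), which is 2 times the array median, was reached on every array of the group by 4 of the 45 windows in MEFF total RNA, 25 in MEFB polyA RNA and 22 in MEFF polyA RNA. The shares among all windows were 2.15% in MEFF total RNA, 7.72% in MEFB polyA RNA and 3.91% in MEFF polyA RNA. On all 5 arrays together 4 block windows reached it, against 1.72% of all windows. One of the 4 lies in Zbtb22, another in the last exons and introns of Tapbp, and the other two lie inside Rps18. The Zbtb22 window, from 32414000, had 1.18 and 1.38 in MEFF total RNA, 2.70 in MEFB polyA RNA, and 2.72 and 3.74 in MEFF polyA RNA. The Tapbp window, from 32424000, had 1.67 and 1.62 in MEFF total RNA, 2.26 in MEFB polyA RNA, and 1.69 and 2.74 in MEFF polyA RNA. In total RNA the Tapbp window and the Rps18 window from 32450000 had the highest means of the block, and in polyA RNA the Zbtb22 window stood above both.

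By the mean over the 3 groups the 5 highest windows covered Zbtb22 (2 windows, 1 of them shared with Tapbp), late exons of Daxx and 2 parts of Tapbp. The lowest window, from 32434000, lay between Rgl2 and H2-Ke2 and held no exon or intron probe. It had 0.07 and 0.09 in MEFF total RNA, -0.06 in MEFB polyA RNA, and -0.16 and 0.23 in MEFF polyA RNA. The next lowest, from 32412000, ran from the gap behind Daxx into the overlapping starts of Tapbp and Zbtb22, where probes were given to no gene, and had 0.08 and 0.17 in MEFF total RNA, 0.02 in MEFB polyA RNA, and 0.13 and 0.56 in MEFF polyA RNA. The other three lay at the front of Daxx (2 windows) and in an intron stretch of Wdr46.

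**Figure D2:**
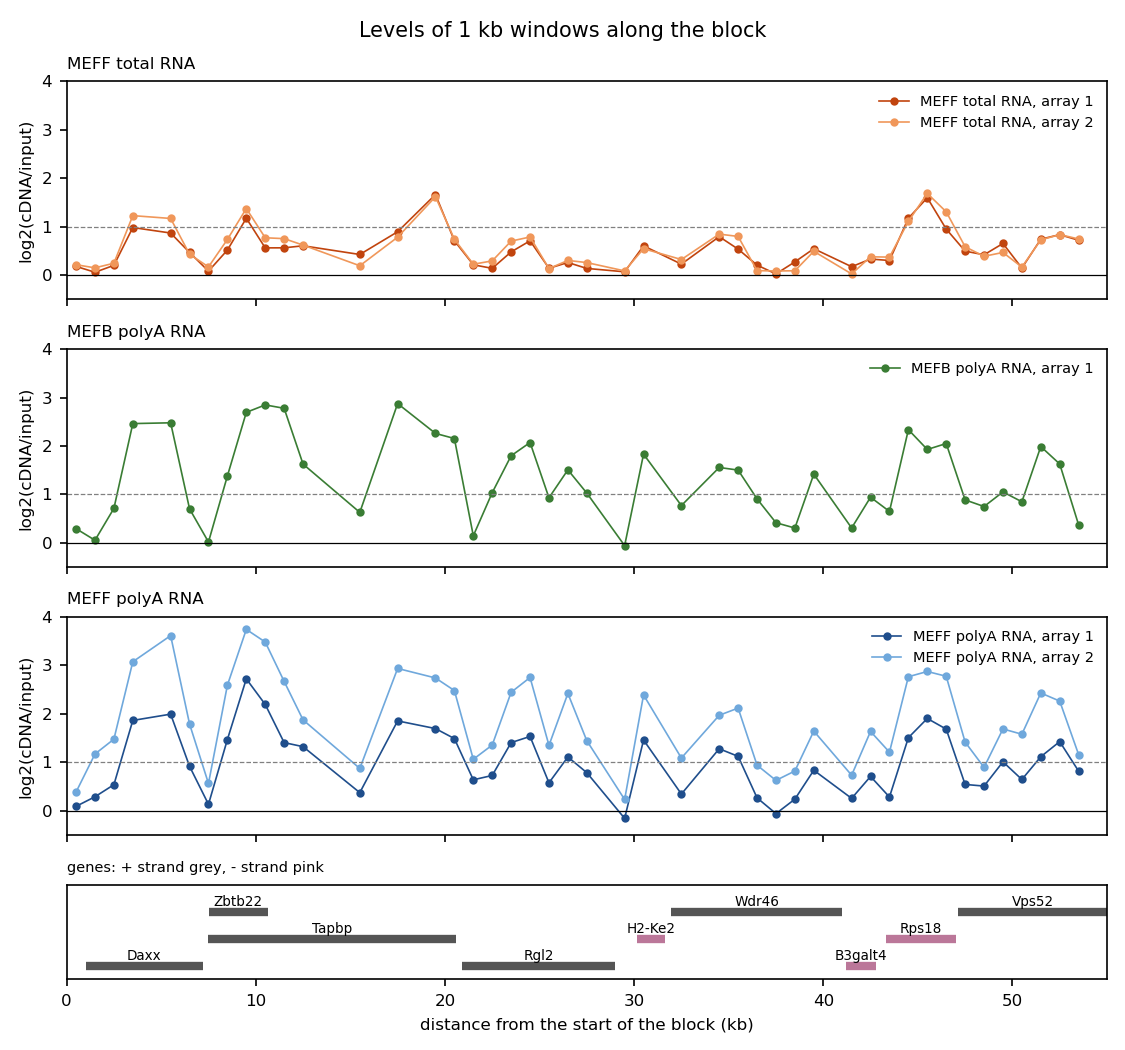
Level of each 1 kb window with at least 4 probes, as log2(cDNA/input) centred on the array median (y axis), against distance from the start of the block in kb (x axis), with 1 panel per group, 1 line per array, and the genes as bars below. The dashed line marks log2 1; 4 windows lie above it on all 5 arrays, and the window between Rgl2 and H2-Ke2 lies between -0.16 and 0.23.

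The shape of the profile was alike on all arrays. Over the 45 windows the correlation was r = 0.95 between the MEFF total RNA arrays and 0.97 between the MEFF polyA RNA arrays. Between MEFB polyA RNA and MEFF polyA RNA it was 0.92 and 0.94, and between total and polyA RNA of MEFF it ran from 0.75 to 0.86. These points share their probes and base composition, so the correlations are descriptions.

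Exon probes lay above intron probes on every array. Exons averaged 0.83 and 0.93 in MEFF total RNA, 2.17 in MEFB polyA RNA, and 1.69 and 2.82 in MEFF polyA RNA. Introns averaged 0.37 and 0.41 in MEFF total RNA, 0.96 in MEFB polyA RNA, and 0.70 and 1.44 in MEFF polyA RNA. Probes between genes averaged 0.23 and 0.25 in MEFF total RNA, 0.34 in MEFB polyA RNA, and 0.14 and 0.62 in MEFF polyA RNA. The exon excess over introns was 0.49 ± 0.04 (SD, n = 2) in MEFF total RNA, 1.22 in MEFB polyA RNA (n = 1) and 1.19 ± 0.28 (SD, n = 2) in MEFF polyA RNA. Over all placed probes of the chromosome the same excess was 0.63 ± 0.01 in MEFF total RNA, 1.44 in MEFB polyA RNA and 1.41 ± 0.41 in MEFF polyA RNA. Over pooled probes the exon excess of the block was therefore no larger than that of the chromosome. The pooled block values hold 24 intron probes of Rps18 and only 1 exon probe of that gene. Gene by gene, the excess of Tapbp, Rgl2, H2-Ke2, Wdr46 and Vps52 lay above the median over 619 genes on every array. That of Daxx lay above it on some arrays and below it on others.

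Taken gene by gene, 8 of the 9 genes had at least 4 exon probes, and each is described by the mean of those probes. The median over the 679 genes of the chromosome measured in this way was 0.39 and 0.38 in MEFF total RNA, 1.25 in MEFB polyA RNA, and 0.92 and 1.63 in MEFF polyA RNA. The medians of the 8 block genes were 0.88 and 0.94 in MEFF total RNA, 2.00 in MEFB polyA RNA, and 1.57 and 2.71 in MEFF polyA RNA. Levels of different genes rest on different probes, and their order is given as a description.

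Tapbp and H2-Ke2, the genes of antigen presentation and protein folding, stood near the top of the block in polyA RNA. The 17 exon probes of Tapbp averaged 1.21 and 1.22 in MEFF total RNA, 3.54 in MEFB polyA RNA, and 2.33 and 3.68 in MEFF polyA RNA. On its highest array it reached the 92.0 percentile of the 679 genes. H2-Ke2, with 6 exon probes, had 1.18 and 1.00 in MEFF total RNA, 3.15 in MEFB polyA RNA, and 2.58 and 3.72 in MEFF polyA RNA. H2-Ke2 lay between the 73.2 and 89.5 percentile, and the order of these genes changed from array to array.

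Of the nuclear proteins, Zbtb22 stood above Daxx on every array. Zbtb22, with 14 exon probes, had 0.91 and 1.19 in MEFF total RNA, 2.45 in MEFB polyA RNA, and 2.38 and 3.55 in MEFF polyA RNA. Daxx, with 18 exon probes, had 0.66 and 0.88 in MEFF total RNA, 1.75 in MEFB polyA RNA, and 1.35 and 2.35 in MEFF polyA RNA. The nucleolar gene Wdr46, with 14 exon probes, had 1.04 and 1.19 in MEFF total RNA, 2.18 in MEFB polyA RNA, and 1.64 and 2.79 in MEFF polyA RNA. It lay below Zbtb22 on the 3 polyA RNA arrays, and in MEFF total RNA they differed by less than the spread between arrays of Zbtb22.

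The trafficking, signalling and glycosylation genes were lower. Rgl2, with 27 exon probes, had 0.61 and 0.72 in MEFF total RNA, 1.78 in MEFB polyA RNA, and 1.495 and 2.64 in MEFF polyA RNA. Vps52, with 17 exon probes of which 10 lie inside the block, had 0.84 and 0.68 in MEFF total RNA, 1.81 in MEFB polyA RNA, and 1.33 and 2.29 in MEFF polyA RNA. Daxx, Rgl2 and Vps52 changed places from array to array and did not differ beyond that spread. B3galt4 was the lowest on each of the 5 arrays. Its 12 probes averaged 0.34 and 0.41 in MEFF total RNA, 1.13 in MEFB polyA RNA, and 0.77 and 1.74 in MEFF polyA RNA, between the 47.3 and 51.4 percentile of the 679 genes.

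Rps18 could not be measured on its exons. Only 1 probe fell in its 5 exons. Its 24 intron probes averaged 1.10 and 1.24 in MEFF total RNA, 2.13 in MEFB polyA RNA, and 1.64 and 2.78 in MEFF polyA RNA. These levels lay between the 97.1 and 98.2 percentile of the 664 genes with at least 4 intron probes. The brightest was its second intron, at 34089537 to 34092022 on NCBIM37, 2486 bases long with 15 probes. There the means were 1.44 and 1.45 in MEFF total RNA, 2.27 in MEFB polyA RNA, and 1.84 and 3.01 in MEFF polyA RNA. Of the 15 probes 9 reached 1 on all 5 arrays, and the share of all intron probes that did so was not counted. The first intron, with 7 probes, had 0.68 and 1.10 in MEFF total RNA, 2.11 in MEFB polyA RNA, and 1.44 and 2.67 in MEFF polyA RNA. In the span of the protein-coding transcripts of Rps18, 34088944 to 34092662, the annotation holds no other protein-coding gene. Only protein-coding genes were used to class the probes. Whether these probes also bind RNA of other ribosomal protein copies in the genome was not tested.

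The introns of the other genes were dimmer. Wdr46, with 40 intron probes, had 0.08 and 0.10 in MEFF total RNA, 0.45 in MEFB polyA RNA, and 0.14 and 0.69 in MEFF polyA RNA, the lowest of the 7 genes measured. Its exons stood 1.03 ± 0.09 (SD, n = 2) above its introns in MEFF total RNA, 1.74 in MEFB polyA RNA and 1.80 ± 0.42 (SD, n = 2) in MEFF polyA RNA. For Vps52, Rps18's neighbour across the shared start, that excess was 0.40 ± 0.12 in MEFF total RNA, 1.05 in MEFB polyA RNA and 0.85 ± 0.19 in MEFF polyA RNA. The median over 619 genes was 0.25 and 0.27 in MEFF total RNA, 0.77 in MEFB polyA RNA, and 0.57 and 0.92 in MEFF polyA RNA.

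**Figure D3:**
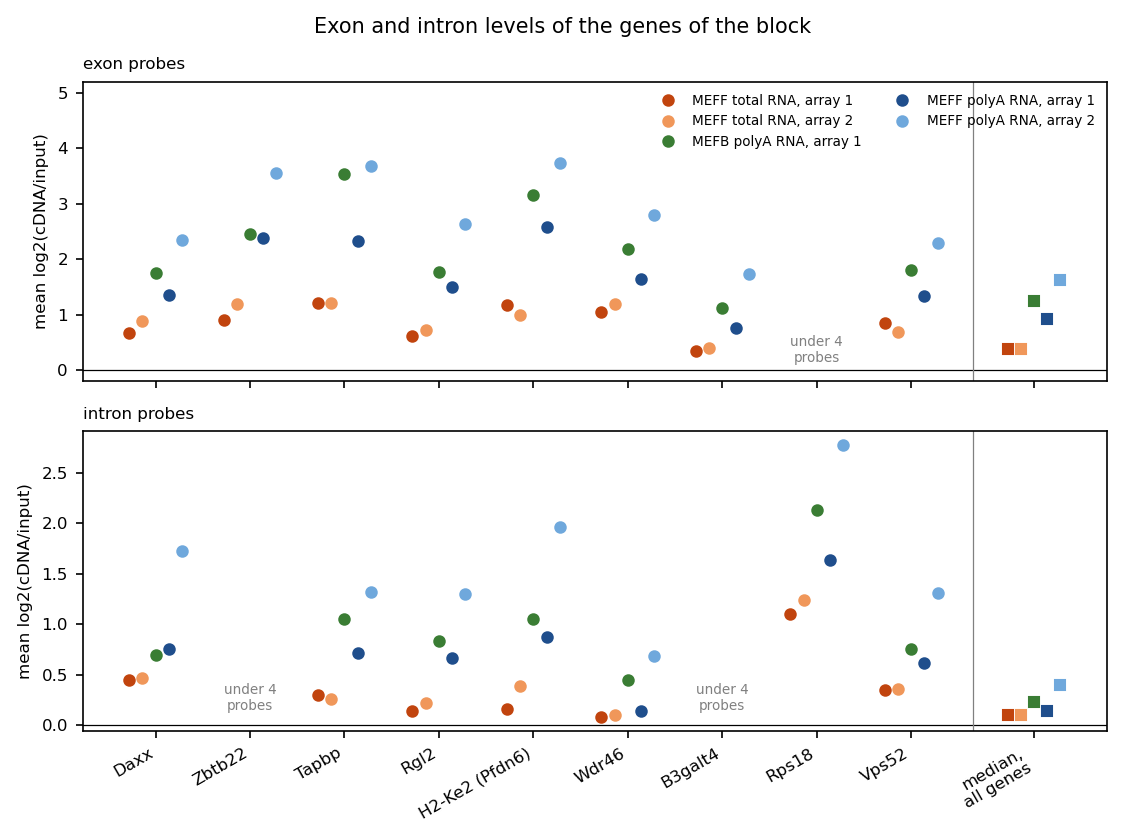
Mean log2(cDNA/input) of exon probes (upper panel) and intron probes (lower panel) of each gene of the block in genomic order, 1 point per array, with squares for the median over all genes measured. B3galt4 is lowest on exons on each array, Rps18 is highest on introns, and Wdr46 is lowest on introns.

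Signal was uneven along the transcripts. When the exon probes of a gene were split into its 5′ and 3′ parts, the 3′ part was brighter on all 5 arrays for 5 of the 8 genes, Daxx, Zbtb22, Tapbp, Rgl2 and Wdr46. Of 627 genes with at least 6 exon probes, 34.9% did so, and the median difference over them lay between -0.03 and 0.14. Wdr46 had the widest gap of the 8 genes on the 3 polyA RNA arrays. The 3′ probes of Wdr46 averaged 1.82 and 1.95 in MEFF total RNA, 3.59 in MEFB polyA RNA, and 2.88 and 4.37 in MEFF polyA RNA. Its 5′ probes averaged 0.27 and 0.42 in MEFF total RNA, 0.78 in MEFB polyA RNA, and 0.40 and 1.21 in MEFF polyA RNA. In Tapbp the 3′ part exceeded the 5′ part by 1.65 and 1.53 in MEFF total RNA, 1.86 in MEFB polyA RNA, and 1.84 and 1.97 in MEFF polyA RNA. Vps52 had the opposite sign on all 5 arrays, with differences between -0.57 and -0.15. H2-Ke2, with 3 probes in each part, was brighter in the 3′ part on 1 array. The split was chosen after the data had been seen.

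**Figure D4:**
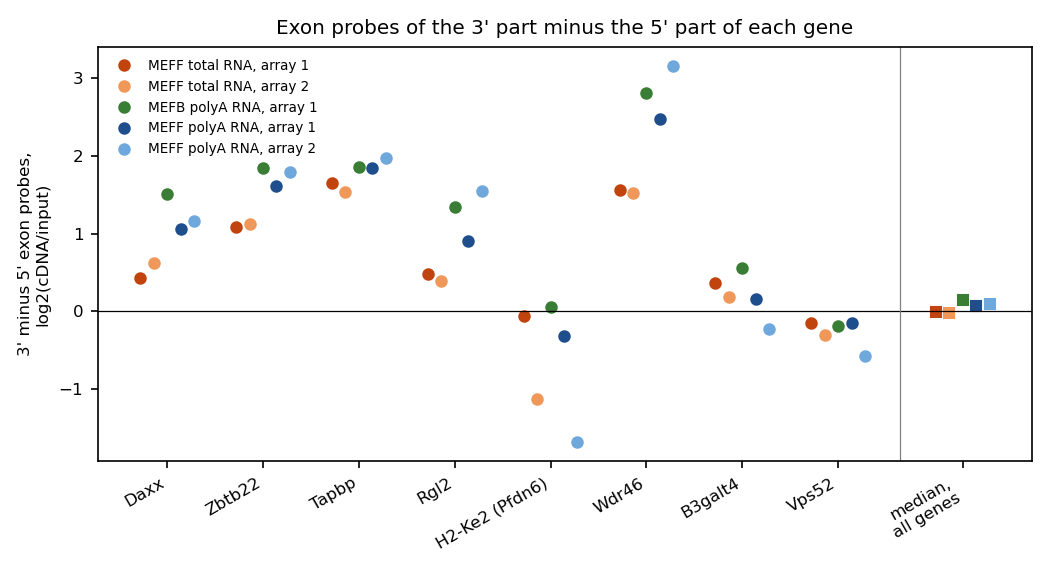
Mean log2(cDNA/input) of the exon probes in the 3′ part of each gene minus that in its 5′ part (y axis), 1 point per array, with squares for the median over 627 genes. Daxx, Zbtb22, Tapbp, Rgl2 and Wdr46 lie above 0 on all 5 arrays and Vps52 below 0 on all 5.

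The first comparison set MEFF total RNA against MEFF polyA RNA. Each array was centred on its own median, so a difference does not give the share of the signal that belongs to polyadenylated transcripts. This contrast was tested by limma across all features of the chromosome, with Benjamini-Hochberg adjustment. The block was chosen for high levels and the signal was wider in polyA RNA, so the test may not be independent of that choice. In the levels as deposited 89.8% of all genes lay below 0 on exons in this contrast. Levels of the block, relative to the array median, lay below those of polyA RNA in total RNA, by differences that were called after normexp or quantile normalization but not in the levels as deposited. The groups did not overlap for 37 of the 45 windows, with total RNA below polyA RNA, against 21.1% of all windows. They did not overlap for any of the 8 genes measured on exons, total RNA again being lower, against 72.3% of all genes. The count of genes is thus not far from the background, and that of windows lies above it.

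In the levels as deposited no window was called on the chromosome (0%), at an adjusted p under 0.05, and 27 of the 45 block windows had an unadjusted p under 0.05, as had 4209 of all windows. The difference of the block mean was -0.88 (SE 0.29) with an adjusted p of 0.467 in limma. The block averaged 0.55 ± 0.04 (SD, n = 2) in MEFF total RNA, against 1.43 ± 0.60 (SD, n = 2) for MEFF polyA RNA. After normexp background correction, 3 block windows were called lower in total RNA, against 0.656% of all windows. Of these 3, the pair in Zbtb22 and Tapbp and 1 in Rgl2 had differences of -2.19, -2.65 and -1.87. After quantile normalization 19 block windows were called, against 2.11%. The block mean was called lower in total RNA by limma under both. It differed by -0.98 (SE 0.15, adjusted p = 3.5e-08) after normexp and by -0.45 (SE 0.08, adjusted p = 0.0095) after quantile normalization. After normexp the stretches on either side had the same SE of 0.15. That p therefore rests on a spread shared between stretches and not on the scatter of the block itself. The normexp difference was -1.39 without MEFF polyA array 1 and -0.57 without array 2. Among all 55 kb stretches 5.18% were called lower after normexp and 4.29% after quantile normalization.

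On exons the differences ranged from -2.06 for H2-Ke2 to -0.88 for B3galt4 in the levels as deposited. There 0 of 8 genes were called (0% of all genes), and 4 of 8 had an unadjusted p under 0.05, as had 283 of all 679 genes. The median over the 8 genes was -1.25, and over all 679 genes -0.84. After normexp, 7 of the 8 genes were called lower in total RNA (49.5% of all genes), and Daxx was not, at -0.94 (SE 0.39) with an adjusted p of 0.059. H2-Ke2 differed by -2.39 (SE 0.39, adjusted p = 0.00093), Zbtb22 by -2.17 (SE 0.37, adjusted p = 0.0013) and Tapbp by -1.78 (SE 0.41, adjusted p = 0.0038). Wdr46 differed by -1.23 (SE 0.39, adjusted p = 0.017) and Vps52 by -1.12 (SE 0.38, adjusted p = 0.023). After quantile normalization 7 of the 8 were called lower (45.8% of all genes), Wdr46 being the exception at -0.28 (SE 0.15, adjusted p = 0.17). On introns 2 of 7 genes, Tapbp and Rgl2, were called lower after normexp (4.22% of all genes). The intron level of Rps18 differed by -1.12 (SE 0.31, adjusted p = 0.086) after normexp and was not called. The block genes were not tested against the other genes.

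**Figure D5:**
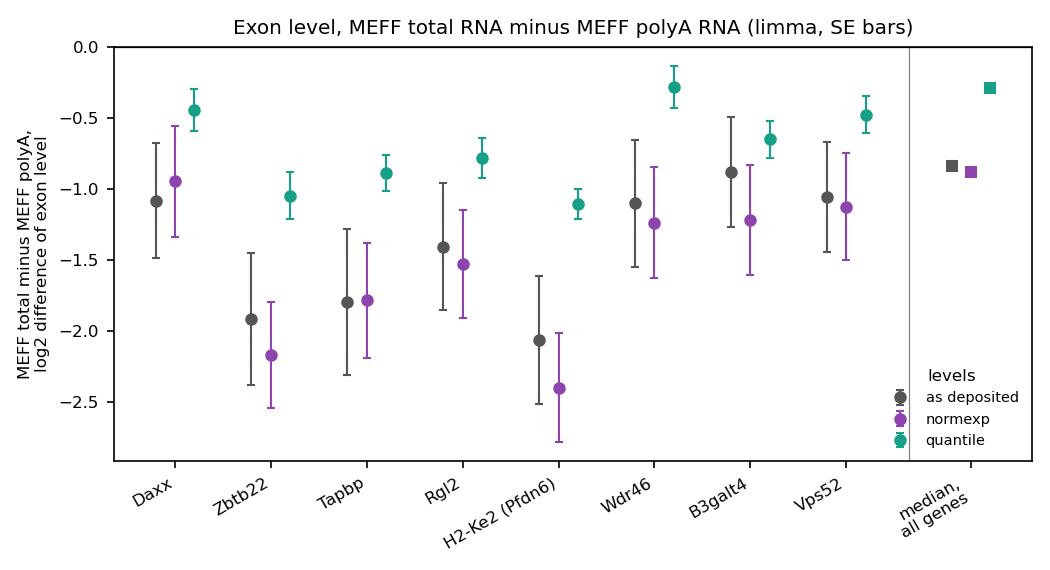
Exon level in MEFF total RNA minus MEFF polyA RNA (y axis, log2) for each gene with at least 4 exon probes, with the standard error from limma, in the levels as deposited, after normexp and after quantile normalization, beside the median over 679 genes (squares). All 8 genes lie below 0 in each, at -2.39 to -0.28.

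The width of the signal moved with the kind of RNA. The 99th percentile of cDNA intensity was 5.42 and 5.33 times the median in MEFF total RNA, 20.7 in MEFB polyA RNA, and 9.17 and 22.4 in MEFF polyA RNA. Its part in the differences above was not tested. The block means of the MEFF polyA RNA arrays differed more from each other than either did from MEFB polyA RNA.

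The second comparison set MEFB polyA RNA against MEFF polyA RNA, lines whose deletions sit on opposite parental copies. MEFB has a single array, so the fit lends it the spread of the MEFF groups. In the levels as deposited limma called 0 of the 8 genes (0% of all genes), and 0 of 8 had an unadjusted p under 0.05, against 53 of all 679 genes. Each of the 8 genes had its exon level in MEFB between those of the MEFF polyA RNA arrays, so 0 of 8 lay outside on either side, against 31.8% of all genes lower in MEFB and 19.6% higher. Of the 45 windows, 7 lay below both MEFF polyA arrays in MEFB (32.9% of all windows) and 1 above both (34.3%). The window above both lay in Tapbp, with 2.78 in MEFB polyA RNA against 1.40 and 2.67 in MEFF polyA RNA.

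The windows furthest below MEFF polyA RNA differed by -0.70 in Rgl2, and by -0.67 and -0.65 in Daxx. The block averaged 1.32 in MEFB polyA RNA, against 1.43 ± 0.60 (SD, n = 2) for MEFF polyA RNA, a difference of -0.11 (SE 0.35, adjusted p = 0.88 in limma). In the levels as deposited 0 windows of the block were called, against 0.00713% of all windows called higher in MEFB and 0% lower. Of the 45 block windows 2 had an unadjusted p under 0.05, against 7977 of all 56080 windows. After quantile normalization 2 block windows were called lower in MEFB, against 1.26% of all windows. Exon differences ranged from -0.51 for Zbtb22 to 0.53 for Tapbp. The direction of the block mean depended on the MEFF array used. Without MEFF polyA array 1 it was -0.53 and without array 2 it was 0.32, in fits whose spread rests on the total RNA arrays alone.

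Beyond the block, the list of the extended class II region held 15 genes, of which 12 could be measured on exons. Slc39a7, a zinc transporter, had 1.15 and 1.17 in MEFF total RNA, 2.69 in MEFB polyA RNA, and 1.84 and 3.25 in MEFF polyA RNA, a level like that of the higher block genes. H2-Ke6 had 0.56 and 0.86 in MEFF total RNA, 1.93 in MEFB polyA RNA, and 1.32 and 2.89 in MEFF polyA RNA. Ring1, a Polycomb component, and Rxrb, a retinoid X receptor, were at most 0.14 in MEFF total RNA, 1.04 in MEFB polyA RNA and 1.40 in MEFF polyA RNA. H2-K1 and Col11a2 had under 4 exon probes. Between total and polyA RNA of MEFF 11 of the 12 were called lower after normexp (49.5% of all genes) and 0 as deposited (0% of all genes), and 8 of the 12 are the block genes counted above.

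Of the 7 cytosolic ribosomal protein genes listed, only Rpl7l1 had 4 exon probes, with 1.06 and 1.05 in MEFF total RNA, 1.98 in MEFB polyA RNA, and 1.72 and 2.75 in MEFF polyA RNA. On introns 6 could be measured. Rpl10a had 1.23 and 1.29 in MEFF total RNA, 3.38 in MEFB polyA RNA, and 2.62 and 3.79 in MEFF polyA RNA, on 10 probes. In MEFF total RNA it and Rps18 had the highest intron levels of the 6, while Rps2 had the lowest, at 0.27 and 0.15. Rps18 is therefore not alone in the list in having bright introns.

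Other cell types were looked for through 17 marker genes. Of the 3 fibroblast markers measured, Crim1, Cyp1b1 and Has1, all 3 lay above 0 on every array, as does the median over all genes. Crim1 and Cyp1b1 also lay above that median on every array. Has1 lay above it in MEFF total RNA and below it in polyA RNA. Has1 had 1.16 in MEFB polyA RNA, and 0.39 and 1.17 in MEFF polyA RNA, against medians of 1.25, and 0.92 and 1.63. Means over the 3 fibroblast markers were 0.82 and 0.83 in MEFF total RNA, 3.34 in MEFB polyA RNA, and 1.29 and 2.23 in MEFF polyA RNA. Antigen-presenting cell markers measured on exons were Aif1, Emr1 and Trem2, with means of -0.10 and -0.15 in MEFF total RNA, -0.14 in MEFB polyA RNA, and -0.05 and 0.03 in MEFF polyA RNA. Emr1 lay below 0 on every array, and Aif1 lay above 0 on MEFF polyA array 2 alone (0.37). Trem2 had 0.18 and 0.05 in MEFF total RNA, -0.04 in MEFB polyA RNA, and 0.08 and 0.33 in MEFF polyA RNA. The class II genes themselves had under 4 exon probes. Lymphocyte markers Lta, Ltb and Tnf averaged -0.24 and -0.27 in MEFF total RNA, -0.67 in MEFB polyA RNA, and -0.33 and -0.33 in MEFF polyA RNA. The pluripotency gene Pou5f1 was below 0 on all arrays. Of the epithelial markers, Cldn9 lay above 0 on all 5 arrays, at 0.13 and 0.17 in MEFF total RNA, 0.08 in MEFB polyA RNA, and 0.65 and 1.47 in MEFF polyA RNA, and Cldn6 reached at most 0.04. The part of Cldn9-expressing cells in the levels of the block was not tested.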

How the data were processed

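Each of the 5 arrays has 388000 probes and 2 deposited files of raw probe intensity, 1 per dye. Per the file headers these came from NimbleScan 2.2.34. Per the labels, Cy3 carried cDNA and Cy5 carried T7-amplified genomic input. The deposited intensity values were turned into log2(cDNA/input) for every probe, less the median of the array, with no further normalization. No spot of the block was at the scanner limit. Median cDNA intensity lay between 569 and 2561.

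Windows of 1 kb needed 4 probes and stretches of 55 kb needed 40. Contrasts were fitted in R 4.3.3 by limma 3.58.1 (lmFit and eBayes on all 5 arrays, 3 group means, 2 residual degrees of freedom), with Benjamini-Hochberg adjustment over all features and a threshold of 0.05. The fit was tested on simulated windows with a spread between arrays of 0.05. The block mean had an SD of 0.60 in MEFF polyA RNA, so that test does not show how the fit behaves at such a spread. Probes were placed on NCBIM37 by layout, and exons, introns and genes come from GENCODE vM1. Genes were named by the rule that every protein-coding gene overlapping the placed block is described, with the 5 highest and lowest windows and the 3 largest differences per direction. Gene lists and the block itself were chosen with earlier results of these data known, so they are no independent support. Fits on gene exons and introns were added after the data had been seen. Alternatives were the median of probes, normexp with offset 50, quantile and loess normalization, cDNA alone, removal of dim input probes, a trended prior, the compared groups alone, windows of 2 and 5 kb, and each MEFF array left out.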

Additional observations from a re-analysis of the deposited data

How the results depend on the processing

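No paired analysis was possible because the replicate numbers follow accession order and pair no arrays. For total minus polyA RNA of MEFF, the block mean was lower in total RNA under each alternative run. The block mean was called after normexp (-0.98), quantile normalization (-0.45), loess (-0.64) and normexp then quantile (-0.75). It was not called as deposited, nor with the median of probes, cDNA alone, dim input probes removed, a trended prior or the compared groups alone. For loess and normexp then quantile the share of all 55 kb stretches called was not counted. With each MEFF array left out the difference ran from -1.31 to -0.45 as deposited. After normexp it ran from -1.39 to -0.57, with -0.94 and -1.02 without a total RNA array. Such a fit leaves 1 array in a MEFF group, and its spread rests on the other MEFF group alone. Counts of calls from such fits are not given. Called windows of the block, 0 as deposited, numbered 3 after normexp, 19 after quantile normalization, 2 after normexp then quantile, and 0 to 43 with an array left out (0 to 15 after normexp). The 43 came without MEFF polyA array 1 and 27 without array 2, fits whose spread rests on the total RNA arrays alone and which called 12116 and 8095 of all 56080 windows. Of 8 genes, 0 were called as deposited, 7 after normexp (336 of all 679) and 7 after quantile normalization (315 of 679). After loess 5 were called (169 of 679), and after normexp then quantile 5 (301 of 679). For MEFB minus MEFF polyA RNA, the block mean reversed with cDNA alone (0.26) and ran from -0.53 to 0.32 with an array left out (-0.92 to -0.09 after normexp). Called windows numbered 2 after quantile normalization and 0 to 32 with an array left out (0 after normexp), and called genes 0 to 7 (0 to 7 after normexp). Without MEFF polyA array 1 the calls were 32 windows and 7 genes lower in MEFB (18474 of all windows and 473 of 679 genes called). Without array 2 they were 19 windows higher, 2 lower and 7 genes higher (17077 windows and 458 genes called). Windows of 2 and 5 kb in the block called 0 for both contrasts. Normexp then quantile called 159 of all 56080 windows of 1 kb for total minus polyA RNA. Block windows reaching log2 1 on all 5 arrays, 4 in the main setting (1.72% of all windows), numbered 2 with medians and 28 after normexp. They numbered 13 after quantile normalization, 9 after loess and 14 at a threshold of 1.5 times. The share of all windows under these alternatives was not counted, so these counts have no background beside them. The exon excess over introns, 0.96 over the 3 groups, was 1.36 after normexp and 0.76 after loess. The cause of these shifts was not tested. The signal over background is narrowest in total RNA, which limits what can be seen there. The normexp combinations were chosen after seeing the data.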
